A study of Drosophila melanogaster with 18 samples.

Results

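The glutathione S-transferases of *Drosophila melanogaster* were followed in heads of the wild-type strain Canton-S across 3 temperatures and 6 times of day. The genes were chosen by symbol, as all table entries whose name is *Gst* followed by a class letter D, E, O, S, T or Z. That naming rule reads no measured value, although the family was picked for description with earlier results of these data known. The table holds 1 value for each annotated transcript and library. Of its 29561 entries, 47 belonged to the family. With identical entries of 1 gene counted once, there were 41 entries of 35 genes, out of 17520 entries in the whole table. Flies had been kept at 18°C, at 25°C or at 29°C under alternating light and dark for at least 3 days before collection. Heads were collected at zeitgeber times (ZT, hours after lights on) 3, 7, 11, 15, 19 and 23, and 3′ ends of polyadenylated RNA were sequenced. Each temperature and time is represented by 1 library (18 libraries), so the 6 times of day served as the replicates of a temperature, and p-values measure the spread between these libraries, time of day included. All groups share the strain and the tissue, and the age at collection and the sex of the flies are not given in the sources used here. For crosses, the methods state rearing at 25°C and a move of newly emerged adults to the other temperatures. Titles and descriptions of the samples disagree on the fifth time (18 h in titles, 19 h in descriptions), and ZT19 was used.

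Glutathione S-transferases join the tripeptide glutathione to reactive compounds, among them insecticides and the aldehydes left by lipid peroxidation, or use it to reduce peroxides and other oxidised substrates. Insects have large delta (D) and epsilon (E) classes of their own, which include enzymes known for insecticide resistance, and smaller omega (O), sigma (S), theta (T) and zeta (Z) classes that other animals share. Zeta enzymes isomerise maleylacetoacetate in tyrosine breakdown, and omega enzymes reduce thiol bonds and dehydroascorbate more than they conjugate.

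Values are given as signal, the unit of the deposited table, in which each library's reads were divided by 1 constant. Because 3′ RNA-seq reads 1 end of a transcript, signal is not divided by transcript length, and levels of different genes are compared as 3′ ends sequenced. A library held an estimated 1.24 to 6.61 M reads (median 3.11 M), with the fewest at 25°C and ZT15, and 3 reads corresponded to a signal of 1.54 to 7.36. Photoreceptor markers were prominent. The summed share of *ninaE*, *Arr2*, *trp* and *ninaC* in the total signal averaged 1.24% at 18°C, 2.02% at 25°C and 2.80% at 29°C (ranges 1.06% to 1.40%, 1.90% to 2.14% and 2.55% to 3.12%). The share of 6 fat body genes (*Yp1*, *Yp2*, *Yp3*, *fit*, *Lsp2* and *to*) averaged 15.07%, 7.61% and 4.31% in the same order (ranges 9.65% to 19.1%, 4.88% to 8.74% and 3.32% to 6.05%). Of the 2 Malpighian tubule markers, *Uro* was at 0 in all 18 libraries, while *Irk3* was above 0 in all of them. *Irk3* averaged a signal of 18.95 at 18°C, 22.53 at 25°C and 12.44 at 29°C. The 4 gut markers summed to a signal of 15.7 to 30.6 at 18°C, 12.7 to 80.5 at 25°C and 9.69 to 445 at 29°C. Medians of this sum were 24.6, 28.5 and 37.8, and the highest sum was in the 29°C library of ZT3. In bulk heads, fewer cells of a type and less RNA per cell cannot be told apart.

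Entries of a gene that differ by under 10% in signal were counted as 1 end, since near-equal values leave their reads largely shared. This count rests on signal alone, and the annotated 3′ ends of such entries differ in position. *GstE12* (2 entries, 0.0101% apart), *GstS1* (3 entries, at most 1.15% apart) and *GstZ2* (3 entries, at most 0.685% apart) were such cases, whereas the 2 entries of *GstO2* differed by 71.8% and were counted separately. The family had 36 ends in this sense. A signal of at least 10 in at least 6 libraries was required for testing, and 31 entries of 25 genes, or 26 ends, passed. The tested genes comprised 5 of 11 delta genes, 10 of 14 epsilon genes, all 3 omega genes, the only sigma gene, all 4 theta genes and both zeta genes.

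A pair of genes carried most of the family's signal in the head. *GstE12* averaged a signal of 2606 over the 18 libraries and *GstD1*, a delta enzyme known for DDT metabolism, averaged 1784. Together they made up 59.7% ± 1.8 of the *Gst* signal (mean ± SD, n = 18). *GstE9* followed at 707, *GstE6* at 319, *GstS1* at 260, the proximal end of *GstO2* at 241 and *GstO3* at 226. The highest means of the remaining classes were 131 for *GstT1* and 77.9 for *GstZ2*. Of the 36 ends, 12 averaged over 100 and 11 averaged under 10.

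**Figure D1:**
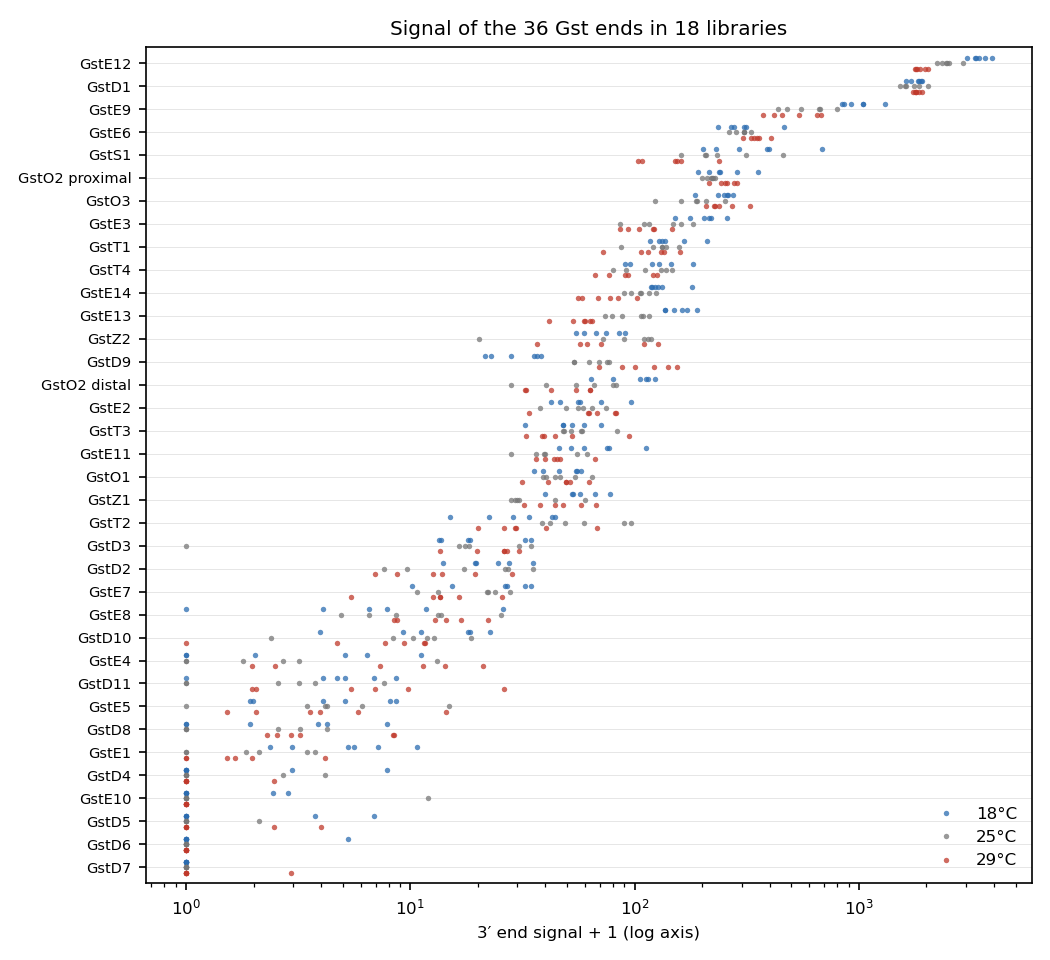
Signal + 1 (log axis) of each of the 36 *Gst* ends in the 18 libraries, 1 point per library and coloured by temperature, ordered by mean signal. *GstE12* and *GstD1* stand above all others, and 10 genes at the bottom did not pass the filter on low signal.

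The 10 genes that were not tested sat in the delta and epsilon clusters. *GstD6* and *GstD7* were at or under 3 reads in all 18 libraries, and *GstD5* and *GstE10* in 17. *GstD4* was at or under that floor in 16 libraries, *GstD8* and *GstE1* in 15, *GstE4* in 11, *GstD11* in 10 and *GstE5* in 9. These low values are close to the detection limit of the libraries. In a fit without the filter, 0, 0 and 1 of the 10 genes passed at 18°C against 25°C, 29°C against 25°C and 29°C against 18°C. The 1 gene was *GstE1*, with a mean signal of 4.69 ± 3.05 at 18°C, 1.19 ± 1.19 at 25°C and 0.882 ± 1.18 at 29°C (SD, n = 6). Its log2 change at 29°C against 18°C was -1.60 ± 0.46 (SE; limma, adjusted p = 0.0185), while all 6 libraries at 29°C and 3 of 6 at 18°C were at or under 3 reads. The remaining 9 did not pass at this depth. The highest single value among them was a signal of 25.2 for *GstD11* at 29°C and ZT11.

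The clusters show how unequal neighbouring copies were. Genes *GstE1* to *GstE10* lie within 13.2 kb of chromosome arm 2R (14284143 to 14297340, dm3, as are all positions here), and mean signal ranged from 0.795 for *GstE10* to 707 for *GstE9*. Genes *GstD1* to *GstD11* lie within 20.8 kb of 3R (8190498 to 8211346), where *GstD1* averaged 1784 and its next neighbour *GstD9* averaged 68.5. The transcripts of *GstD1* and *GstD9* run in the same direction, with 252 bp between them. All nonzero values of the members were whole multiples of the value of 1 read, so no member value showed a divided read. How reads shared by similar copies were assigned is not described in the sources used here. Levels of weak members beside strong ones are therefore uncertain.

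**Figure D2:**
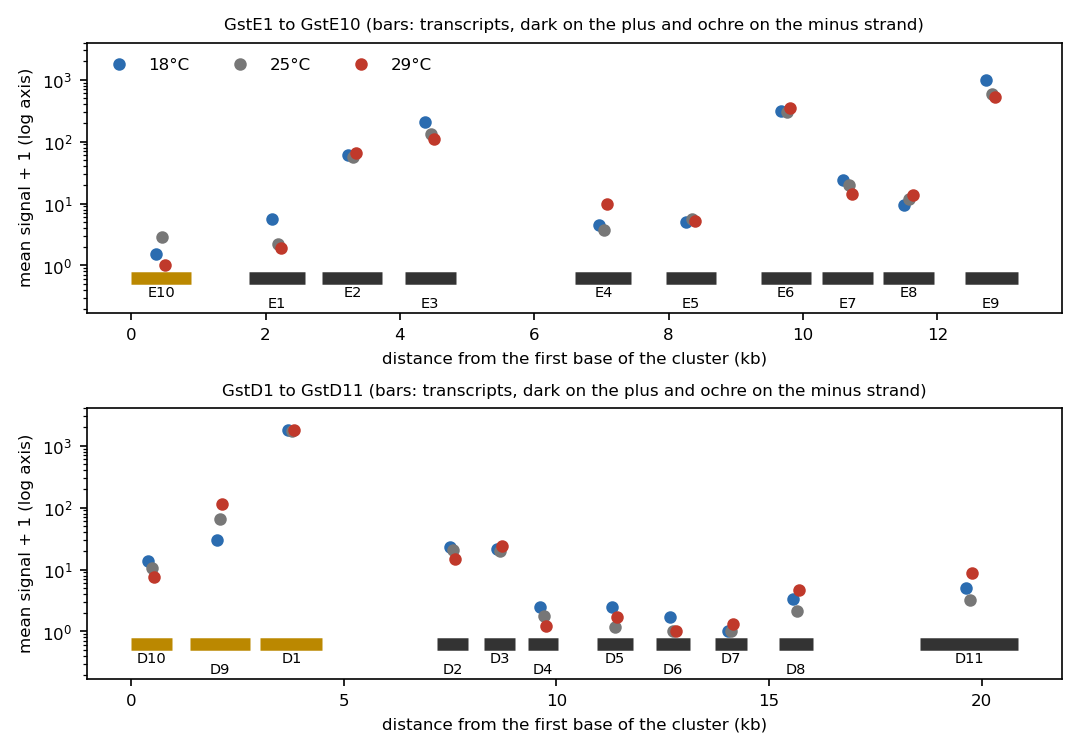
Mean signal + 1 (log axis, n = 6 libraries per temperature) of the genes of the epsilon cluster (top) and the delta cluster (bottom) against the distance of the transcript's middle from the first base of the cluster, in kb. *GstE9* was highest at 18°C beside a nearly even *GstE6*, and the mean of *GstD9* was lowest at 18°C and highest at 29°C beside nearly equal means of *GstD1*.

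To ask how the family varies with temperature, libraries of all times of day were compared between temperatures with limma on log2(signal + 1). Benjamini-Hochberg adjustment ran over the 10031 tested entries. Log2 changes are on that scale, which understates the change of weak genes. At 18°C against 25°C, *GstE12*, *GstE9*, *GstE13*, *GstE3* and the distal end of *GstO2* were higher and *GstD9* and *GstT2* were lower. These are 8 of 31 entries, or 7 of 26 ends, where 11.6% of all tested entries passed (7.22% higher and 4.34% lower). At 29°C against 25°C, only *GstE12* and *GstE13* passed, both lower, which is 3 of 31 entries or 2 of 26 ends against 2.27% of all tested entries (0.897% higher and 1.38% lower). At 29°C against 18°C, *GstE12*, *GstE9*, *GstE13*, *GstE3*, *GstE14*, *GstS1* and the distal *GstO2* end were lower and *GstD9* was higher. These are 11 of 31 entries, or 8 of 26 ends, against 24% of all tested entries (10.6% higher and 13.4% lower). The 3 comparisons share libraries, so they are not separate evidence.

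The median log2 change over the 26 ends was 0.28 for 18°C against 25°C. It was -0.16 at 29°C relative to 25°C and -0.30 at 29°C relative to 18°C. Over all tested entries of the table the medians were -0.01, 0.02 and 0.04. The groups of 6 libraries did not overlap for 4, 2 and 7 *Gst* ends in these comparisons. Over all tested entries 5.94%, 2.37% and 12.5% did not overlap. The ends that did not pass had log2 changes between -0.72 and 0.68 for 18°C against 25°C, and between -1.01 and 1.05 at 29°C relative to 18°C. Their 95% confidence intervals reached -2.29 and 2.28 for the weakest genes, so the data leave room for sizeable changes of these.

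**Figure D3:**
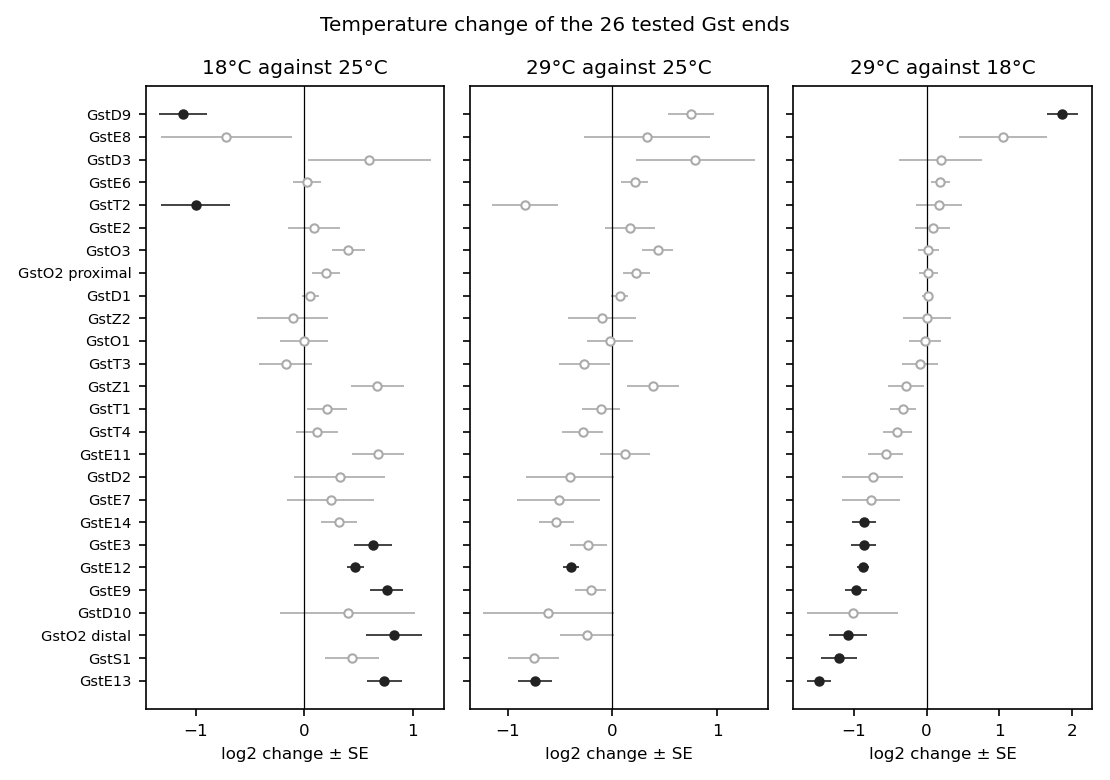
Log2 change ± SE of the 26 tested *Gst* ends in the 3 temperature comparisons (a panel each), ordered by 29°C against 18°C. Filled points passed the adjusted threshold of 0.05 (7, 2 and 8 ends), and *GstD9* is the only end that passed as higher at 29°C relative to 18°C.

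Among the epsilon genes, *GstE12* was the strongest and was separate at every temperature. It lies on 2R (20654241 to 20655695), far from the cluster. Its signal ranged over 3028 to 3915 at 18°C (median 3389), 2234 to 2900 at 25°C (median 2453) and 1780 to 2044 at 29°C (median 1852). No 2 temperatures overlapped, so the order was necessarily the same at all 6 times of day. The log2 change was 0.47 ± 0.08 (SE) at 18°C against 25°C (limma, adjusted p = 0.000125), -0.40 ± 0.08 at 29°C against 25°C (adjusted p = 0.00721) and -0.87 ± 0.08 at 29°C against 18°C (adjusted p = 2.1e-09).

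*GstE13* (2R, 5009630 to 5010814) had the most negative log2 change of the tested ends at 29°C against 18°C. Its signal was 136.1 to 189.2 at 18°C (median 155.5), 72.8 to 114.4 at 25°C (median 96.25) and 40.65 to 63.29 at 29°C (median 58.62). The 3 ranges were again separate. *GstE13* changed on the log2 scale by 0.74 ± 0.16 (SE) at 18°C against 25°C (limma, adjusted p = 0.00238), -0.74 ± 0.16 at 29°C against 25°C (adjusted p = 0.0120) and -1.48 ± 0.16 at 29°C against 18°C (adjusted p = 5.8e-08). Without the libraries of ZT15 the change at 29°C against 25°C kept its size (-0.74) but had an adjusted p of 0.0594.

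*GstE9* (2R, 14296553 to 14297340), the last gene of the epsilon cluster, was set apart at 18°C. Its signal was 841.7 to 1310 at 18°C (median 984.0), 434.1 to 797.6 at 25°C (median 605.3) and 374.0 to 677.7 at 29°C (median 495.9). The range at 18°C lay above the others, and those at 25°C and 29°C overlapped. *GstE9* changed on the log2 scale by 0.76 ± 0.15 (SE) at 18°C against 25°C (limma, adjusted p = 0.000768) and -0.97 ± 0.15 at 29°C against 18°C (adjusted p = 1.2e-05). At 29°C against 25°C it was -0.21 ± 0.15 (adjusted p = 0.576).

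*GstE3*, of the same cluster (14288218 to 14288972), had a signal of 150.4 to 257.0 at 18°C (median 208.4), 84.92 to 181.5 at 25°C (median 131.2) and 85.21 to 146.6 at 29°C (median 111.7). Only 18°C and 29°C were separate. The log2 change was 0.63 ± 0.18 (SE) at 18°C against 25°C (limma, adjusted p = 0.0165) and -0.87 ± 0.18 at 29°C against 18°C (adjusted p = 0.000434). The 18°C to 25°C difference did not pass when libraries were scaled to equal totals alone (0.46, adjusted p = 0.0910) or without the 25°C library of ZT11 (0.51, adjusted p = 0.0527).

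*GstE14* (2R, 9127234 to 9128518), known as *noppera-bo* for its need in ecdysteroid synthesis in the larval ring gland, passed in 1 comparison. Its signal was 117.7 to 180.0 at 18°C (median 124.1), 88.34 to 124.2 at 25°C (median 105.2) and 55.04 to 101.3 at 29°C (median 72.22). The values at 29°C all lay below those at 18°C, with 25°C in between and overlapping both. The log2 change at 29°C against 18°C was -0.86 ± 0.17 (SE; limma, adjusted p = 0.00025).

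The remaining tested epsilon genes did not pass. *GstE6*, a cluster gene second in level to *GstE9*, averaged 311.0 ± 80.6 at 18°C, 299.5 ± 23.2 at 25°C and 347.5 ± 33.7 at 29°C (SD, n = 6). *GstE11*, away from the cluster, averaged 69.3 ± 24.01, 42.4 ± 12.4 and 45.4 ± 10.5, with a log2 change of 0.68 ± 0.24 (SE) at 18°C against 25°C (limma, adjusted p = 0.0654). *GstE2*, *GstE7* and *GstE8* averaged between 8.54 and 64.2 at each temperature.

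In the delta class, 1 of 5 tested genes passed. *GstD9* (3R, 8191885 to 8193286) was the only end of the family higher at 29°C relative to 18°C by the adjusted threshold. Its signal was 20.57 to 37.07 at 18°C (median 30.97), 52.49 to 76.06 at 25°C (median 65.26) and 68.54 to 153.2 at 29°C (median 110.2). The range at 18°C was separate from both others, and those of 25°C and 29°C overlapped. Its log2 change was -1.12 ± 0.22 (SE) at 18°C against 25°C (limma, adjusted p = 0.0007), 0.75 ± 0.22 at 29°C against 25°C (adjusted p = 0.0644) and 1.87 ± 0.22 at 29°C against 18°C (adjusted p = 1.5e-07), a 3.64-fold higher level on the log2(signal + 1) scale.

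*GstD1* (3R, 8193539 to 8194990), directly upstream of *GstD9*, did not pass in any comparison. Its signal was 1617 to 1905 at 18°C (median 1842), 1528 to 2037 at 25°C (median 1693) and 1743 to 1912 at 29°C (median 1802). The 3 ranges overlapped. The 95% confidence interval of the log2 change was -0.11 to 0.22 at 18°C against 25°C, -0.09 to 0.23 at 29°C against 25°C and -0.15 to 0.18 at 29°C against 18°C. *GstD2*, *GstD3* and *GstD10* were weak, with means of 6.66 to 22.9 at each temperature, and did not pass either.

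**Figure D4:**
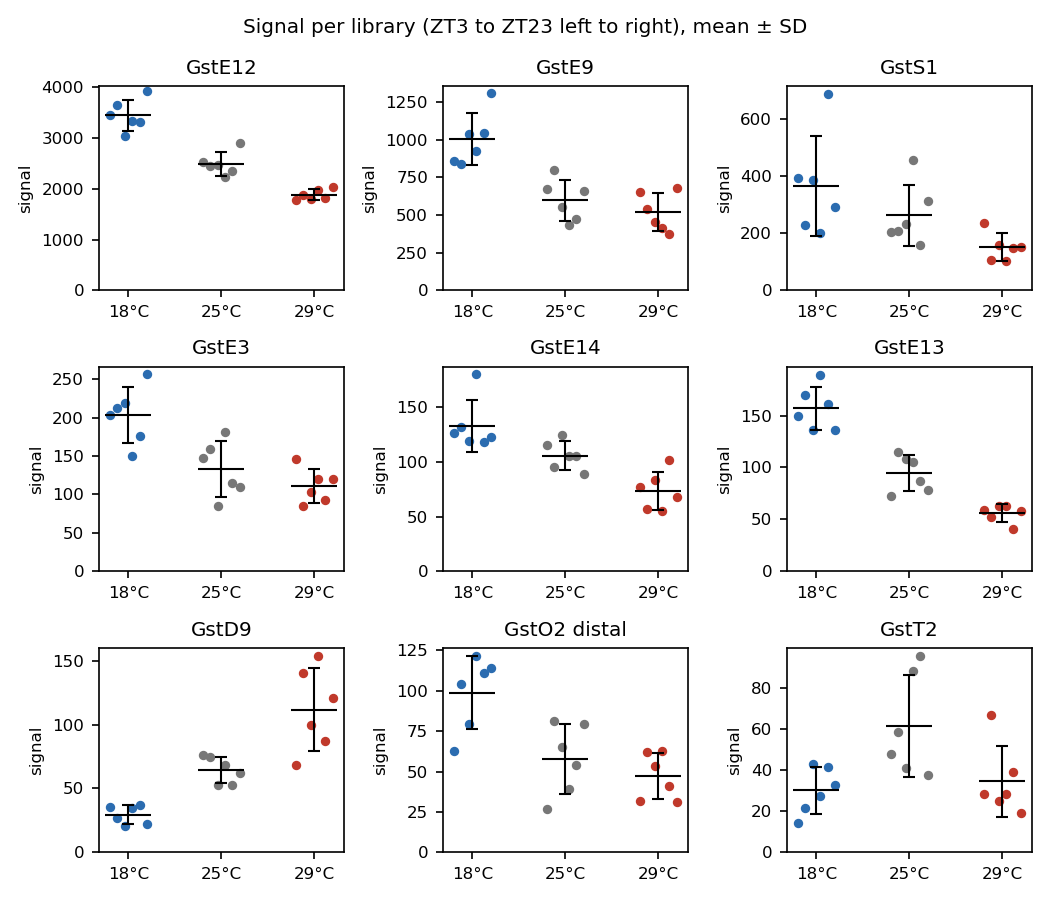
Signal in each library of the 9 *Gst* ends that passed in at least 1 temperature comparison, with the mean ± SD of the 6 libraries per temperature and the times of day ordered from ZT3 to ZT23 within a temperature. *GstE12* and *GstE13* have 3 separate ranges, and *GstD9* runs in the opposite direction to the epsilon genes.

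Ratios of 2 genes within a library do not depend on how the libraries were scaled. A set of 4 such pairs was compared, chosen after the values were seen, by two-sided exact permutation tests over 924 arrangements (smallest p 0.00216), adjusted over the 12 tests. Each pair sets a gene that passed in a temperature comparison over a gene that passed in none. The p-values of these ratios are therefore not separate evidence. The log2 ratio of *GstE12* to *GstD1* averaged 0.94 ± 0.12 at 18°C, 0.52 ± 0.21 at 25°C and 0.05 ± 0.09 at 29°C (SD, n = 6). It differed between 18°C and 25°C (adjusted exact p = 0.00649), between 29°C and 25°C (adjusted exact p = 0.00433) and between 29°C and 18°C (adjusted exact p = 0.00433). *GstE12* exceeded *GstD1* in all 6 libraries at 18°C, and at 29°C the log2 ratio ranged over -0.10 to 0.19. The log2 ratio of *GstD9* to its neighbour *GstD1* averaged -5.96 ± 0.44 at 18°C, -4.76 ± 0.12 at 25°C and -4.08 ± 0.45 at 29°C, with adjusted exact p of 0.00433 at 18°C against 25°C, 0.0144 at 29°C relative to 25°C and 0.00433 at 29°C relative to 18°C. The log2 ratio of *GstE9* to *GstE6* averaged 1.71 ± 0.30 at 18°C, 0.97 ± 0.28 at 25°C and 0.55 ± 0.26 at 29°C. Its adjusted exact p was 0.00433 at 18°C against 25°C, 0.0364 at 29°C against 25°C and 0.00433 at 29°C relative to 18°C. The difference at 29°C against 25°C (-0.42) did not pass without the 29°C library of ZT11, ZT15 or ZT19 or the 25°C library of ZT3, ZT7 or ZT23 (adjusted exact p up to 0.0675).

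The single sigma enzyme, *GstS1* (2R, 12981148 to 12984941 for the entry with the highest mean signal), is known for conjugating the lipid peroxidation product 4-hydroxynonenal and for its abundance in flight muscle. Its signal was 201.5 to 685.9 at 18°C (median 339.7), 160.2 to 456.2 at 25°C (median 219.8) and 102.6 to 236.2 at 29°C (median 151.8). All 3 ranges overlapped, and the 29°C library was below the 18°C library at each of the 6 times of day. Its log2 change was -1.20 ± 0.25 (SE) at 29°C against 18°C (limma, adjusted p = 0.000509). The changes relative to 25°C did not pass (0.44 at 18°C, limma, adjusted p = 0.276, and -0.75 at 29°C, adjusted p = 0.112). Without ZT15 the change at 18°C against 25°C was 0.76 (adjusted p = 0.0302). The share of 3 muscle markers (*Mhc*, *Act88F* and *Tm2*) in the total signal averaged 0.196% at 18°C, 0.155% at 25°C and 0.130% at 29°C, and its part in the *GstS1* result was not tested.

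Of the omega genes, *GstO2* had 2 ends that behaved differently. The distal end belongs to the longer entry (3L, 8514529 to 8516601, minus strand), and the proximal end to the shorter one (8515511 to 8516601). The distal end had a signal of 62.9 to 121.7 at 18°C (median 107.8), 27.17 to 81.37 at 25°C (median 59.57) and 31.41 to 62.48 at 29°C (median 47.5). Its values at 29°C lay below those at 18°C, and 25°C overlapped both. The log2 change was 0.83 ± 0.26 (SE) at 18°C against 25°C (limma, adjusted p = 0.0331) and -1.08 ± 0.26 at 29°C against 18°C (adjusted p = 0.0022). The proximal end averaged 253.7 ± 58.3 at 18°C, 216.0 ± 10.1 at 25°C and 254.1 ± 25.3 at 29°C (SD, n = 6), and its log2 change at 29°C against 18°C was 0.03 ± 0.13 (SE).

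The distal end made up 28.2% ± 5.8 of the *GstO2* signal at 18°C, 20.7% ± 6.6 at 25°C and 15.4% ± 3.3 at 29°C (SD, n = 6). The shares at 29°C (10.9% to 18.3%) lay below all of those at 18°C (22.7% to 36.8%). The share differed by -12.8 percentage points at 29°C relative to 18°C (exact permutation p = 0.00216, and 0.00649 adjusted over 3 tests). The difference at 18°C against 25°C was 7.53 percentage points (adjusted exact p = 0.0974), and that at 29°C against 25°C was -5.28 (adjusted exact p = 0.117). The last 61 bp of the distal end overlap the end of *se* (sepia) on the other strand, an omega-class gene outside the symbol rule that is needed for the red drosopterin eye pigments. *se* averaged 1102 at 18°C, 661 at 25°C and 572 at 29°C, with log2 changes of 0.70 at 18°C against 25°C (limma, adjusted p = 0.00231) and -0.94 at 29°C against 18°C (adjusted p = 2.8e-05). *se* therefore moved in the same direction as the distal *GstO2* end and was far stronger at each temperature. Whether strand was used in counting is not given in the sources used here, so reads of *se* and of the distal *GstO2* end cannot be told apart.

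*GstO1* and *GstO3*, in the same 6.0 kb of 3L, did not pass in any comparison. *GstO1* averaged 47.0 ± 9.2, 47.1 ± 9.6 and 46.6 ± 10.4 at the 3 temperatures from low to high (SD, n = 6). *GstO3* averaged 243.6 ± 31.9, 186.4 ± 43.7 and 249.0 ± 43.5, lowest at 25°C, with adjusted limma p of 0.0774 at 18°C and 0.137 at 29°C, both relative to 25°C.

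*GstT2* (2R, 5494797 to 5495855) was the theta gene that passed, and the only member highest at 25°C among those that did. Its signal was 14.099 to 43.1 at 18°C (median 30.3), 37.54 to 95.32 at 25°C (median 53.15) and 19.05 to 66.81 at 29°C (median 28.37). The ranges overlapped in each pair. The log2 change at 18°C against 25°C was -1.004 ± 0.316 (SE; limma, adjusted p = 0.0363), and at 29°C against 25°C it was -0.84 ± 0.32 (adjusted p = 0.179). Its neighbour *GstT1*, 107 bp upstream, averaged 147.7 ± 34.3 at 18°C, 127.2 ± 23.5 at 25°C and 119.1 ± 29.7 at 29°C (SD, n = 6) and did not pass. The log2 ratio of *GstT2* to *GstT1* differed between 18°C and 25°C by -1.24 (adjusted exact p = 0.00649 over the 12 ratio tests) and between 29°C and 25°C by -0.75 (adjusted exact p = 0.0449). The ratio was chosen after the values were seen, so it adds no separate evidence to the *GstT2* result. The log2 difference of this ratio between 29°C and 18°C was 0.50 (adjusted exact p = 0.152). At 29°C against 25°C it did not pass without the 29°C library of ZT3, ZT11, ZT19 or ZT23 or the 25°C library of ZT3, ZT7, ZT15, ZT19 or ZT23 (adjusted exact p up to 0.0897). *GstT2* overlaps *CG12926* on the other strand by 223 bp, and that gene averaged 57.0 at 18°C, 59.4 at 25°C and 78.2 at 29°C.

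*GstT3* and *GstT4*, both on the X chromosome, and the zeta genes did not pass. *GstZ1* averaged 56.9 ± 13.06 at 18°C, 36.01 ± 12.6 at 25°C and 46.9 ± 13.0 at 29°C (SD, n = 6), with a log2 change of 0.67 ± 0.25 (SE) at 18°C against 25°C (limma, adjusted p = 0.0739). *GstZ2* averaged 70.9 ± 14.2, 86.4 ± 37.1 and 76.4 ± 34.6 at the 3 temperatures. Antisense neighbours also touch the 3′ ends of *GstE12* (*CG3894*, 33 bp), *GstE13* (*CG18659*, 6 bp) and *GstE9* (*imd*, 40 bp). None of these 3 neighbours passed in any comparison, and their means were at most 89.5.

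Summed over the family, the *Gst* signal was 8304 to 9917 at 18°C (median 8711), 6192 to 7573 at 25°C (median 6980) and 5933 to 6681 at 29°C (median 6295). The values at 18°C lay above the others, and 25°C and 29°C overlapped. As a share of each library's total signal, the family took 0.243% ± 0.018 at 18°C, 0.216% ± 0.012 at 25°C and 0.198% ± 0.008 at 29°C (SD, n = 6). The ranges of this share were 0.223% to 0.269%, 0.195% to 0.230% and 0.189% to 0.212%. By share, then, 18°C and 25°C overlapped, and only 18°C and 29°C were separate. The epsilon class made up 61.5% ± 1.8 of the *Gst* signal at 18°C, 55.4% ± 2.8 at 25°C and 49.9% ± 1.5 at 29°C, and the delta class 21.5% ± 1.3, 26.6% ± 1.9 and 31.5% ± 1.0. The omega class took 7.30% ± 0.90, 7.29% ± 0.56 and 9.50% ± 1.03. Summed delta signal itself varied little, with 1894 ± 112 at 18°C, 1854 ± 207 at 25°C and 1983 ± 69 at 29°C. Summed epsilon signal was 5430 ± 505, 3857 ± 328 and 3141 ± 217. Most of each sum came from 1 gene, as *GstD1* averaged 1799, 1737 and 1815 and *GstE12* averaged 3448, 2487 and 1884. The sums therefore do not describe the weaker members of these classes. Of the 6 fat body markers, 5 were higher at 18°C against 25°C and 5 were lower at 29°C against 18°C. Of the 4 photoreceptor markers, 3 were lower and 3 were higher in these comparisons. The part of either tissue in the *Gst* results was not tested. With every library scaled to its total without the yolk protein genes, 8, 3 and 11 *Gst* entries passed in the 3 comparisons, as many as with the deposited values. That scaling was not planned beforehand, and it changes library totals only, so it does not test tissue content.

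Daily rhythms were tested in limma with a 24 h wave (cosine plus sine). No *Gst* entry passed the adjusted threshold for a rhythm common to the 3 temperatures, for one at a single temperature (each of the 3), or for a difference in rhythm between temperatures. The share of all tested entries that passed was 0.488%, 0.120%, 0.169%, 0.110% and 0% in these 5 tests. At an unadjusted limma p under 0.05, 5, 0, 6, 6 and 3 of the 31 *Gst* entries were found, where 8.66%, 7.55%, 8.46%, 4.74% and 4.91% of all tested entries were. These entries belong to 3, 0, 4, 4 and 3 genes, because near-equal entries of *GstZ2* were counted separately. No other rhythm method was run.

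The 3 genes with an unadjusted p under 0.05 for the common rhythm were *GstT4*, *GstE9* and *GstZ2*. *GstT4* had its fitted peak at ZT 7.0 with a log2 amplitude of 0.35 (limma, adjusted p = 0.258, unadjusted 0.00479). At 18°C its highest value was 181 at ZT11 and its lowest 90.0 at ZT15. *GstE9* had a fitted common peak at ZT 2.68 with a log2 amplitude of 0.25 (limma, adjusted p = 0.348, unadjusted 0.00861). At 29°C its signal was 653 at ZT3 and 678 at ZT23 but 374 at ZT19, and at 25°C it was 798 at ZT7 and 434 at ZT15. *GstZ2* had a fitted peak at ZT 3.18 with a log2 amplitude of 0.47 (limma, adjusted p = 0.498, unadjusted 0.0322), and its value at 25°C and ZT19, 19.3, was the lowest of its 18. *GstD3* had the lowest p at 25°C (limma, adjusted p = 0.292, unadjusted 0.00368), where its signal was 0 in the ZT15 library, the one with the fewest reads.

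**Figure D5:**
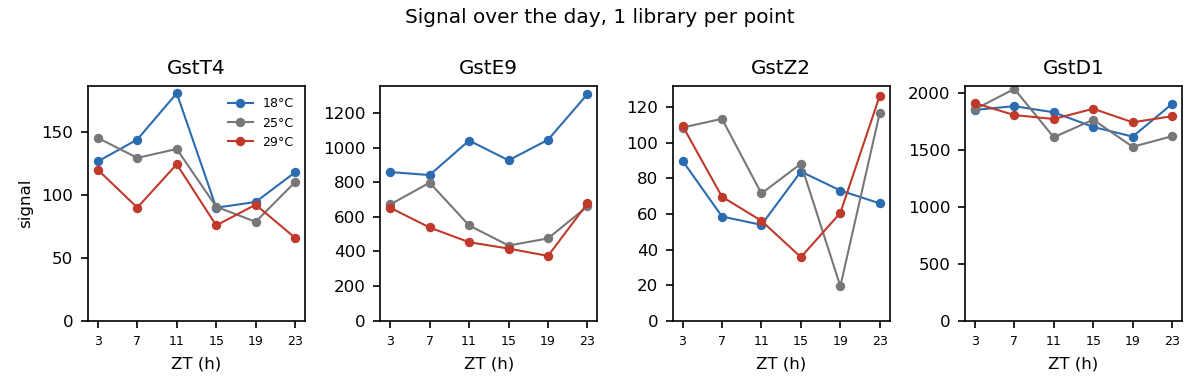
Signal of *GstT4*, *GstE9*, *GstZ2* and *GstD1* against zeitgeber time in h, 1 library per point and 1 line per temperature. None passed the adjusted threshold for a daily rhythm, and *GstE9* at 18°C (842 to 1310) stays above its values at 25°C and 29°C at every time of day.

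Other genes of glutathione and redox metabolism were read from the same fit. Of 36 listed genes, 33 were tested, and 13 were higher and 4 lower at 18°C relative to 25°C (median log2 change 0.23). At 29°C against 25°C, 3 were higher and 1 lower (median 0.02), and at 29°C against 18°C, 4 were higher and 12 lower (median -0.12). Each listed gene was read at its entry with the highest mean signal, so other entries of a gene are not covered. The percentages over all tested entries are those given above, and they count entries rather than genes. The thioredoxins, glutaredoxins and peroxidases, which reduce peroxides and protein disulfides, held 9 of the 13 genes that were higher at 18°C relative to 25°C, out of 11 tested, and 7 of the 12 that were lower at 29°C relative to 18°C.

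Among them *PHGPx*, a glutathione peroxidase homologue, averaged 1512 ± 109 at 18°C, 946 ± 87 at 25°C and 797 ± 51 at 29°C (SD, n = 6), and its log2 change at 29°C against 18°C was -0.92 ± 0.08 (SE). The peroxiredoxin *Prx2540-1* had a log2 change of 1.24 at 18°C against 25°C, -0.70 at 29°C against 25°C and -1.94 at 29°C against 18°C. Its near-identical copy *Prx2540-2* may share reads with it, so both are uncertain. *Jafrac1*, another peroxiredoxin, was lowest at 25°C, with 1849 ± 170 at 18°C, 1413 ± 72 at 25°C and 1799 ± 54 at 29°C. *Mgstl*, the microsomal glutathione transferase, which belongs to a protein family unrelated to the members, was higher at 18°C relative to 25°C (log2 change 0.57) and lower at 29°C relative to 18°C (-0.67). Of the 5 tested genes in its list, *CG33178* also passed, in the opposite direction, with a log2 change of -0.38 at 18°C relative to 25°C (limma, adjusted p = 0.00302) and 0.51 at 29°C relative to 18°C (adjusted p = 4.5e-05).

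Of the 7 genes of glutathione synthesis and turnover, 2 passed. *Gclc* and *Gclm*, the subunits of the rate-limiting ligase, did not pass in any comparison. *GS*, encoding glutathione synthetase, averaged 149 ± 16 at 18°C, 213 ± 24 at 25°C and 296 ± 21 at 29°C (SD, n = 6). Its log2 change was -0.51 at 18°C against 25°C (limma, adjusted p = 0.00299) and 0.99 at 29°C against 18°C (adjusted p = 1.4e-07), the direction of *GstD9*. The neighbouring entry *CG32495* carried identical values and was counted with it in the list, so the signal may belong to either gene. Of the regulators, *cnc* and *Keap1*, whose products form the main switch of antioxidant and detoxification genes, did not pass, whereas the *cnc* partner *maf-S* was lower at 18°C relative to 25°C (log2 change -0.47) and higher at 29°C relative to 18°C (0.67). *gfzf*, a zinc finger gene with a glutathione transferase domain, was higher at 18°C relative to 25°C (1.39) and lower at 29°C relative to 18°C (-1.37).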

How the data were processed

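The authors deposited 1 table of signal per annotated transcript: read numbers divided by 1 constant per library. The counting rule and the constants are not given in the sources used here. The submitters' processing notes name Bowtie2, TopHat, Cufflinks and the dm3 build. Of the nonzero values of a library, 97.0% to 98.0% were whole multiples of the most frequent small value, taken as 1 read, and the rest were not whole, so the count test foreseen for whole reads was replaced by limma 3.58.1 (R 4.3.3; empirical Bayes with an intensity trend, 3 temperature means, 18 libraries, pseudocount 1, signal of at least 10 in at least 6 libraries, Benjamini-Hochberg adjustment, threshold 0.05). The fit was tested on simulated data. Samples were grouped by labelled temperature, and no per-sample column was left unmapped. Exact permutation tests used scipy 1.17.1. Floors cover counting error only, since amplified reads are not independent molecules.

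The family and the gene lists were chosen with earlier results of these data known, while the symbol rule that finds the members reads no measured values. Genes named with their values were those past the threshold, the strongest of each class and those whose 29°C and 18°C libraries did not overlap, with others by counts or ranges. Further genes named for their level, position or day profile, the 4 ratios and the *GstO2* share were chosen after their values were seen. Symbols of listed genes were matched through RefSeq names of a later assembly, from which no position was taken. Listed genes and tissue markers were each read at the entry with the highest mean signal. No sequences are printed. Alternatives were another filter, pseudocount, scaling or treatment of repeated entries, the time point as a block, the fifth time at ZT18, and libraries left out.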

Additional observations from a re-analysis of the deposited data

Results flagged for a closer look

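In 5 of 78 groups of 6 libraries (26 tested ends at 3 temperatures), the highest library stood further from the rest than Dixon's 95% limit for 6 values. Chance gives about 3.9 such groups. *GstE14* at 18°C had a signal of 180.0 at ZT15, against 117.7 to 131.5 in the other 5 libraries. *GstE6* at 18°C had 464.6 at ZT23, against 233.6 to 313.0. *GstE11* at 29°C had 65.5 at ZT15, against 35.5 to 45.3. *GstT3* had 93.7 at ZT15 at 29°C, against 31.6 to 51.7, and 82.9 at ZT19 at 25°C, against 46.7 to 57.4. Of these 4 genes only *GstE14* passed in a temperature comparison.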

How the results depend on the processing

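Counts of *Gst* entries that passed stayed within 1.5 times of the reported ones under the alternatives run, except at 29°C against 25°C. There, all entries as deposited gave 5 in place of 3, the added ones being repeats of the same 2 genes. Leaving out the 29°C library of ZT3, the one with the highest gut marker sum, gave 6 entries of 4 genes in that comparison. The part of gut content in this was not tested. Leaving out 1 library at a time gave 6 to 10 entries for 18°C against 25°C, 3 to 6 for 29°C against 25°C and 11 to 12 for 29°C against 18°C. Rhythm tests gave 0 to 0. The *GstO2* distal share differed by 5.61 to 8.90 percentage points (18°C against 25°C), -7.20 to -3.91 (29°C against 25°C) and -13.9 to -11.1 (29°C against 18°C). With the time point as a replicate block, 9, 3 and 11 entries passed, and *GstZ1* at 18°C against 25°C was the added one (limma, adjusted p = 0.0499). Same-time libraries deviated together in 2 of 18 pairs (r over 0.1, range -0.06 to 0.11). These r were taken over all tested entries, so they cannot exclude pairing by time for single genes. Of all 10031 tested entries, 1262, 296 and 2488 passed with the block, against 1159, 228 and 2411 without it. Scaling to equal totals alone shifted the median of all entries to -0.18 at 18°C against 25°C and 0.23 at 29°C against 18°C. Under it 6, 3 and 12 entries passed, without *GstE3* and distal *GstO2* at 18°C against 25°C and with *GstE6* higher at 29°C than at 18°C (0.38, limma, adjusted p = 0.0229). Without ZT15, 10, 2 and 12 entries passed. At 18°C against 25°C, distal *GstO2* did not pass in 10 of 29 alternatives (adjusted p up to 0.131) and *GstT2* in 8 of 29 (up to 0.12), ZT15 left out being the highest for both. The changes of *GstE12*, *GstE9*, *GstE14*, *GstS1* and *GstD9* that passed also passed in all alternatives run, and no called change reversed. *GstD9* at 29°C against 25°C, which had not passed, did so in some. These were a signal of at least 10 in all 18 libraries (limma, adjusted p = 0.0484) and the 29°C library of ZT3 left out (adjusted p = 0.0286). Without that library *GstS1* passed in this comparison too (adjusted p = 0.0497). The ratios of *GstE9* to *GstE6* and *GstT2* to *GstT1* at 29°C against 25°C passed with all libraries but not in 6 and 10 of 19 alternatives. The count test was not run, because not all values of the deposited table are whole reads. Weak genes are limited by depth.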
